A study of Daphnia magna with 335 samples.

Results

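The 9 libraries described here came from pools of whole Daphnia magna kept for 24 h in the 3 highest nominal concentrations of cis-Nonachlordane, 66.67, 21.1 and 6.677 µM, coded D1, D2 and D3 in the labels. They were taken by chemical and level code from the 335 libraries of a series that exposed this freshwater crustacean to 12 chemicals at 8 concentrations each. Their controls were the 6 solvent pools (dimethyl sulfoxide, DMSO) of the same exposure, 3 named CON and 3 named XtraC, which shared plates with cis-Nonachlordane and with fexofenadine. The solvent was brought to the same share in every well, at most 0.34%, so treated and control animals all carried it. Each concentration had 3 pools, lettered A, B and C. A pool held the homogenates of 5 animals from 1 of 3 plates, with dead animals left out, so some pools may hold fewer. Concentrations are nominal, and each library averages the bodies of its animals, so fewer cells of a type and less RNA per cell cannot be told apart. The labels used here give no strain, age or sex of the animals, and no source used here says that the plates were separate cultures, so p-values measure the spread between these pools. The comparison asks whether transcripts change further over the 10-fold range from 6.677 to 66.67 µM or have reached a plateau, and which probes differ between its ends.

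cis-Nonachlordane is a constituent of technical chlordane, a persistent, fat-soluble organochlorine insecticide. Chlordane belongs to the cyclodienes, which are known to block chloride channels gated by the neurotransmitter GABA in the nerve cells of arthropods. TempO-Seq, the assay used, joins pairs of detector oligonucleotides on their target transcript and counts the joined pairs by sequencing, so each value belongs to a probe on 1 gene identifier. The deposited files do not pair these identifiers with gene names, and none of them was found in the annotation table used here, so no role is given for any probe and no sequence is shown.

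The 9 treated pools held 556881 to 804582 counts, with a median of 637218, and the 6 DMSO pools held 293743 to 652798, with a median of 551300. The 10 most abundant probes took 24.4% to 30.0% of a library. Of 2378 probes, 1424 passed the filter on low counts and were tested, in a fit of 30 libraries that also held the 5 lower concentrations, D4 to D8. Levels below are CPM, the counts of a probe relative to the library total and scaled with TMM factors, which correct for differences in the make-up of libraries. A probe is called where the Benjamini-Hochberg adjusted p of edgeR's quasi-likelihood test is under 0.05. CON and XtraC pools differed at 0 probes (0% of those tested), with 25 at an unadjusted p under 0.05 and 0 calls by DESeq2.

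All 9 pools lay apart from the 6 DMSO pools on the second principal component of log2 CPM, which held 16.9% of the variance. The pools ran from 0.32 to 13.3 on it and the DMSO pools from -8.68 to -4.94, with no overlap. The 3 levels did not follow their order. D1 pools lay at 0.32 to 6.93, D2 pools at 8.29 to 9.09, D3 pools at 1.63 to 13.3. D4 and D5 pools, at 2.113 and 0.669 µM, lay on the same side at 0.74 to 15.6, and the 9 pools of D6 to D8 lay at -8.93 to -3.66 among the DMSO pools. The first component, 24.7% of the variance, varied within levels: D2 pool A lay at -17.9 on it and the other 8 pools of D1 to D3 between -4.49 and 9.76, while DMSO pools ran from -13.3 to 8.39. Totals tended to be higher on the side of D1 to D5, with overlap. Every pool of D1 to D5 held at least 556881 counts, while D6 to D8 held 412739 to 639531 and the DMSO pools 293743 to 652798. The part of totals in the separation was not tested.

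**Figure D1:**
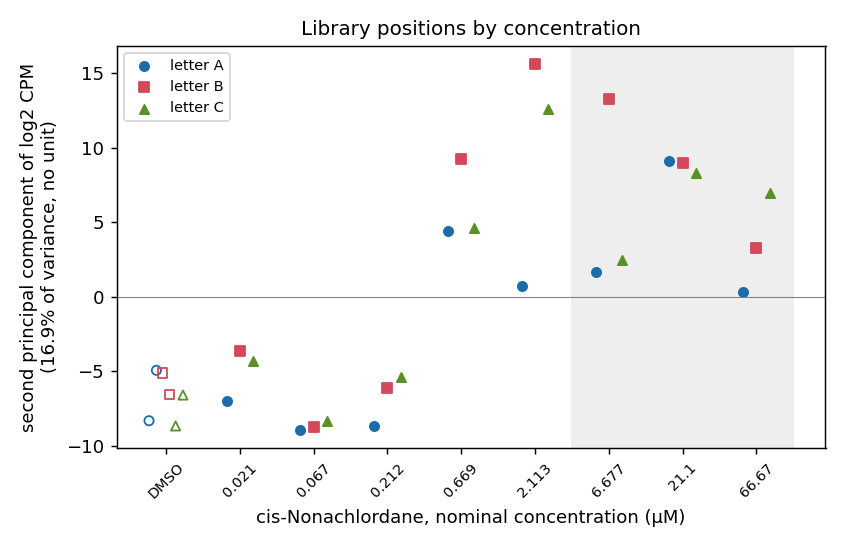
Position of each of the 30 libraries on the second principal component of log2 CPM (no unit) against nominal concentration in µM, spaced evenly. Symbols are pools by letter, open symbols are the DMSO pools, and grey marks the 3 highest concentrations; all pools from 0.669 µM upward lie above 0 and all others below it.

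The 3 highest concentrations as 1 group against DMSO had 164 probes called (11.5% of those tested), 76 higher and 88 lower. The count was 75 against the CON pools alone and 73 against the XtraC pools alone, and 78, 98 and 53 without all libraries of letter A, B or C. With library totals alone in place of TMM the count was 156 and the split turned to 89 higher and 67 lower, so the balance of directions depends on the scaling; the median log2 fold change of all tested probes was 0.01 with TMM and 0.06 with totals alone. On the authors' unscaled log2 table, where that median was 0.41, the split was 400 higher and 20 lower. Most changes were small. The 76 probes that rose had a median log2 fold change of 0.51, with quartiles of 0.36 and 0.83; 13 rose more than 2-fold, 2 more than 4-fold and 1 more than 8-fold. The 88 probes that fell had a median of -0.61, with quartiles of -1.12 and -0.36; 25 fell more than 2-fold, 9 more than 4-fold and 4 more than 8-fold. In DMSO the probes that fell had a median of 442 CPM, against 238 CPM for those that rose and 142 CPM over all tested probes. In the treated pools the order was reversed, at 278 CPM for those that fell and 330 CPM for those that rose. The DMSO pools took part in sorting the probes by direction, so these levels are a description.

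By summed counts, the 76 probes made up 8.71% to 10.4% of each treated library (median 9.79%) and 6.41% to 7.0% of each DMSO library (median 6.68%). The 88 probes made up 12.8% to 14.5% of each treated library (median 14.1%) and 17.5% to 20.5% of each DMSO library (median 19.4%). These sums describe probes chosen on the same libraries, so their direction carries no test. In 66 tested probes (4.63%) all 9 treated pools lay beyond all 6 DMSO pools, 30 above and 36 below; 27 of the 76 and 32 of the 88 were among them.

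The test of each level alone called 45 probes at D1 (3.16%), 104 at D2 (7.30%) and 57 at D3 (4.00%). D1 had 22 higher and 23 lower, D2 had 47 and 57, and D3 had 25 and 32. With library totals alone these splits were 29 and 19, 58 and 38, and 32 and 32, and with the unscaled log2 values 21 and 5, 77 and 11, and 21 and 7. The counts depend on single pools. Without its own pool A, B or C, D1 had 32, 32 and 25 calls, D2 had 44, 44 and 50, and D3 had 50, 20 and 31. Each omission also leaves fewer pools at that level. At like numbers of pools D2 stayed above D1, while D3 overlapped with both, so the counts do not rank all 3 levels. With the letter of the pool as a term in the fit, D1 had 72 calls, D2 had 151 and D3 had 95. The median log2 fold change of the 76 probes was 0.45 at D1, 0.55 at D2 and 0.50 at D3, and that of the 88 probes was -0.58, -0.59 and -0.60. Over all tested probes these medians were 0.01, 0.01 and 0.02. The 3 levels share their DMSO pools and chose these probes, so the medians are a description.

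The medians of the same probes were nearer 0 further down the series. Medians of the 76 were 0.49 at 2.113 µM and 0.42 at 0.669 µM, then 0.03 at 0.212 µM, -0.01 at 0.067 µM and 0.14 at 0.021 µM. Medians of the 88 were -0.54 and -0.36 at 2.113 and 0.669 µM, then -0.01, 0.06 and -0.16 at the 3 lowest concentrations. The median of the 76 stood near its D1 to D3 values from 0.669 µM upward, while that of the 88 lay further from 0 at 2.113 than at 0.669 µM. The same DMSO pools are the baseline at every level and took part in choosing the probes. That choice leans the D1 to D3 medians away from 0, and the shared pools can lean the lower levels the same way. These medians are a description, and no plateau is read from them.

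**Figure D2:**
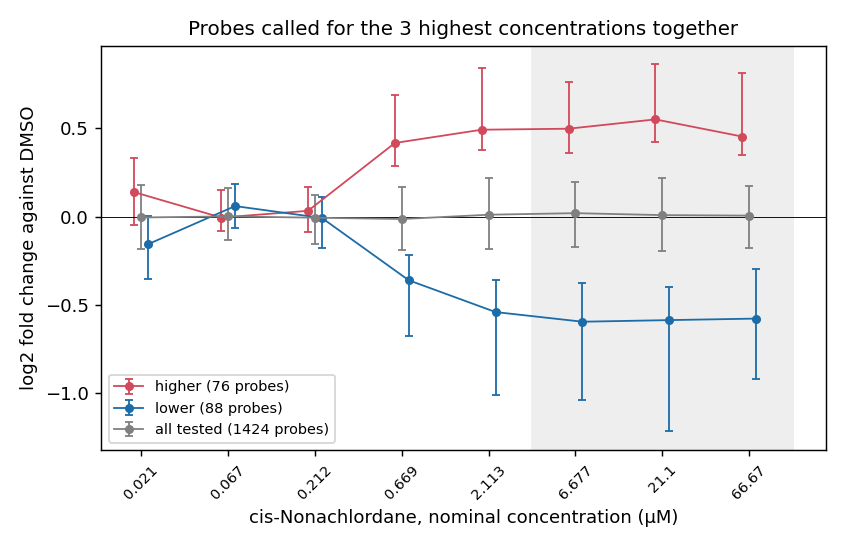
Median log2 fold change against DMSO, with quartiles as bars, of the 76 higher, the 88 lower and all 1424 tested probes at each nominal concentration in µM, spaced evenly. Grey marks the 3 concentrations that chose the probes; the medians there lie at 0.45 to 0.55 and at -0.60 to -0.58, and near 0 at 0.212 µM and below.

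Within the 10-fold range, 1 probe was called for D1 against D3 (0.0702%), with 27 at an unadjusted p under 0.05, and the same number, 1 (0.0702%), for any difference among D1, D2 and D3, with 34. None was called for D2 against the mean of D1 and D3 (0%), where 48 had an unadjusted p under 0.05 and DESeq2 also called 0. Across 1424 tests, 27 and 48 unadjusted results are 1.90% and 3.37% of the probes. Both lie below the share of 0.05 that chance alone gives on average, so the test may be cautious here. With the letter of the pool as a term in the fit the numbers were 40 and 64. A missed threshold does not show that levels are equal, so the interval of each difference was read as well. For 132 of the 164 called probes (80.5%) the 95% interval of D1 minus D3 lay within a 2-fold change in either direction, that is within 1 on the log2 scale; for 32 it reached beyond. The share was 85.5% of the 76 and 76.1% of the 88, beside 77.2% of all tested probes, so it is close to that of probes in general. The interval lay within 0.5 on the log2 scale for 74 of the 164, and the median half-width was 0.38 for the 76 and 0.42 for the 88 on the log2 scale, beside median changes of 0.51 and -0.61 against DMSO.

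Differences between the ends had no common direction away from DMSO. D1 minus D3 was above 0 for 26 of the 76 and below 0 for 50, with a median of -0.06, and above 0 for 50 of the 88 and below 0 for 38, with a median of 0.05. Over all tested probes 661 lay above 0 and 763 below, with a median of -0.02. In both groups the median change at 66.67 µM was thus slightly smaller, not larger, than at 6.677 µM. The interval left out 0 for 4 of the 164 (2.44%), beside 1.90% of all tested probes.

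**Figure D3:**
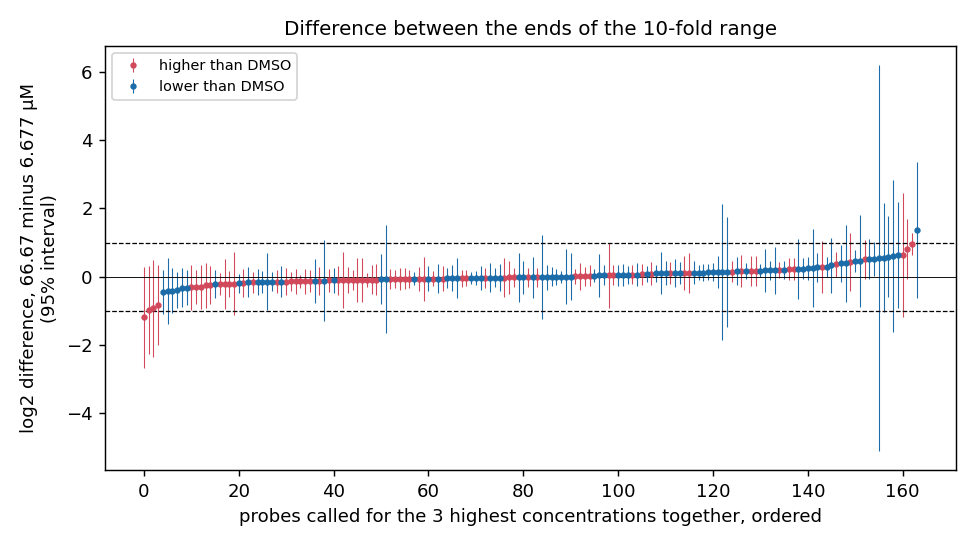
Log2 difference between 66.67 and 6.677 µM with its 95% interval for each of the 164 probes called for the 3 highest concentrations together, ordered by the difference and coloured by direction against DMSO. Dashed lines mark a 2-fold change; 132 intervals lie between them, and 32 reach beyond.

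The probe called between the ends was Dapma7bEVm000190_95850. It held 1804, 1421 and 1082 CPM in D1 pools A, B and C, 1093, 1197 and 1152 CPM in D2, and 802, 727 and 700 CPM in D3. The DMSO pools ran from 504 to 679 CPM with a median of 550 CPM. Every pool of D1 and D2 lay above every pool of D3, D1 and D2 overlapped, and all 9 pools lay above all 6 DMSO pools. Group means were 1436 ± 361 CPM at D1 (SD, n = 3), 1147 ± 52.0 at D2 (n = 3), 743 ± 52.6 at D3 (n = 3) and 566 ± 66.3 in DMSO (n = 6). D1 exceeded D3 by 0.95 ± 0.15 on the log2 scale (SE; 95% interval 0.63 to 1.27; edgeR's quasi-likelihood test, adjusted p = 0.00311), and the test of any difference among the levels gave an adjusted p of 0.0146. Within letters the difference was 1.17 in A, 0.96 in B and 0.63 in C.

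Against DMSO, Dapma7bEVm000190_95850 was called at D1 (log2 fold change 1.34 ± 0.13, adjusted p = 7.01e-08) and at D2 (1.02 ± 0.13, adjusted p = 1.35e-05). At D3 the value was 0.39 ± 0.13 with an adjusted p of 0.103. Lower down its means were 798 CPM at D4, 692 at D5, 653 at D6, 481 at D7 and 516 at D8. At D4 it was called against DMSO (0.49 ± 0.13, edgeR, adjusted p = 0.0210), and at D5 to D8 it was not. Levels at D3, D4 and D5 thus overlapped, and D1 and D2 stood above them. The call between D1 and D3 was lost when all libraries of letter A (adjusted p = 0.103) or of letter B (0.528) were left out, and on the unscaled log2 table (limma, adjusted p = 1); without any single pool of D1 to D3 or DMSO it was kept.

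Of the probes that rose at the 3 concentrations together with no overlap with DMSO, Dapma7bEVm001285_98069 rose the most. It held 76.2, 316 and 204 CPM in D1 pools A, B and C, 76.9, 422 and 276 CPM in D2, and 543, 315 and 309 CPM in D3, against 10.4 to 17.5 CPM (median 11.3) in DMSO. All 9 pools lay far above the 6 DMSO pools, and pool A was the lowest at D1 and D2 but the highest at D3. The log2 fold change of the 3 levels together was 4.43 ± 0.58 (22.8-fold in mean CPM; edgeR, adjusted p = 7.74e-06). D1 minus D3 was -0.97 (95% interval -2.26 to 0.33), and within letters it was -2.78 in A, 0.00 in B and -0.59 in C. The interval holds both a much lower and a slightly higher level at 66.67 µM. The rise was not limited to D1 to D3, with means of 287 CPM at D4, 311 at D5 and 181 at D6. At D6, 0.212 µM, the probe was still called against DMSO (log2 fold change 3.86, edgeR, adjusted p = 0.00798). Means were 39.1 CPM at D7 and 12.7 at D8.

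The second was Dapma7bEVm004937_97857, a scarce probe with 2 to 10 counts in each DMSO pool. It held 49.2, 38.9 and 41.3 CPM in D1, 35.7, 39.6 and 47.8 CPM in D2, and 21.5, 31.4 and 19.8 CPM in D3, against 7.10 to 17.4 CPM (median 11.2) in DMSO. Every D1 and D2 pool lay above every D3 pool, and D1 and D2 overlapped. The log2 fold change together was 1.58 ± 0.33 (edgeR, adjusted p = 0.00204); it was 1.88 at D1 (adjusted p = 0.00504) and 1.81 at D2 (0.00661), while at D3 it was 1.07 with an adjusted p of 0.179. D1 minus D3 was 0.81 (95% interval -0.08 to 1.70; adjusted p = 1.00), so a further rise over the range did not pass the test. Against the XtraC pools alone the call was lost (adjusted p = 0.0629).

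The largest fall was at Dapma7bEVm011534_97824. Its pools held 12.7, 4.67 and 4.28 CPM in D1, 13.7, 3.05 and 4.63 CPM in D2, and 6.13, 1.21 and 7.18 CPM in D3, against 124 to 238 CPM (median 166) in DMSO. These are 1 to 10 counts per treated pool and 45 to 122 per DMSO pool. The log2 fold change was -4.77 ± 0.33, a 27.2-fold lower mean CPM (edgeR, adjusted p = 7.65e-11). D1 minus D3 was 0.64, with an interval from -0.91 to 2.18 that these few counts leave wide.

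Dapma7bEVm001964_97694 fell nearly as far and was abundant in DMSO, at 2057 to 3862 CPM (median 3371). It held 246, 196 and 178 CPM in D1, 174, 183 and 142 CPM in D2, and 187, 232 and 232 CPM in D3. D1 overlapped with D2 and with D3, while every D2 pool lay below every D3 pool, narrowly (183 against 187 CPM). The treated means, 207, 166 and 217 CPM, differed little beside the fall from DMSO (log2 fold change -4.03 ± 0.23, 16.2-fold lower, edgeR, adjusted p = 3.66e-12). D1 minus D3 was -0.07 (95% interval -0.80 to 0.66), which keeps the difference within 2-fold over the range. At D6, 0.212 µM, the probe lay above DMSO instead, with a mean of 8072 CPM (log2 fold change 1.34, edgeR, adjusted p = 0.0459).

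These 4 probes and Dapma7bEVm000190_95850 were also read in the 24 fexofenadine libraries of the same exposure, with a common scaling. Dapma7bEVm001285_98069 lay at 1.66 to 24.8 CPM there (median 11.6), Dapma7bEVm004937_97857 at 4.98 to 24.8 (median 11.8) and Dapma7bEVm000190_95850 at 420 to 636 (median 508). Dapma7bEVm011534_97824 lay at 65.8 to 240 CPM (median 168) and Dapma7bEVm001964_97694 at 1961 to 6601 (median 3605). For 4 of these 5 probes the 9 cis-Nonachlordane pools did not overlap with any fexofenadine library. The exception was Dapma7bEVm004937_97857, whose treated pools started at 19.5 CPM. All 5 were picked by their values in the same treated pools and already lay apart from every DMSO pool, as 66 tested probes (4.63%) did. The count is thus a description, and its share over all tested probes is not given.

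**Figure D4:**
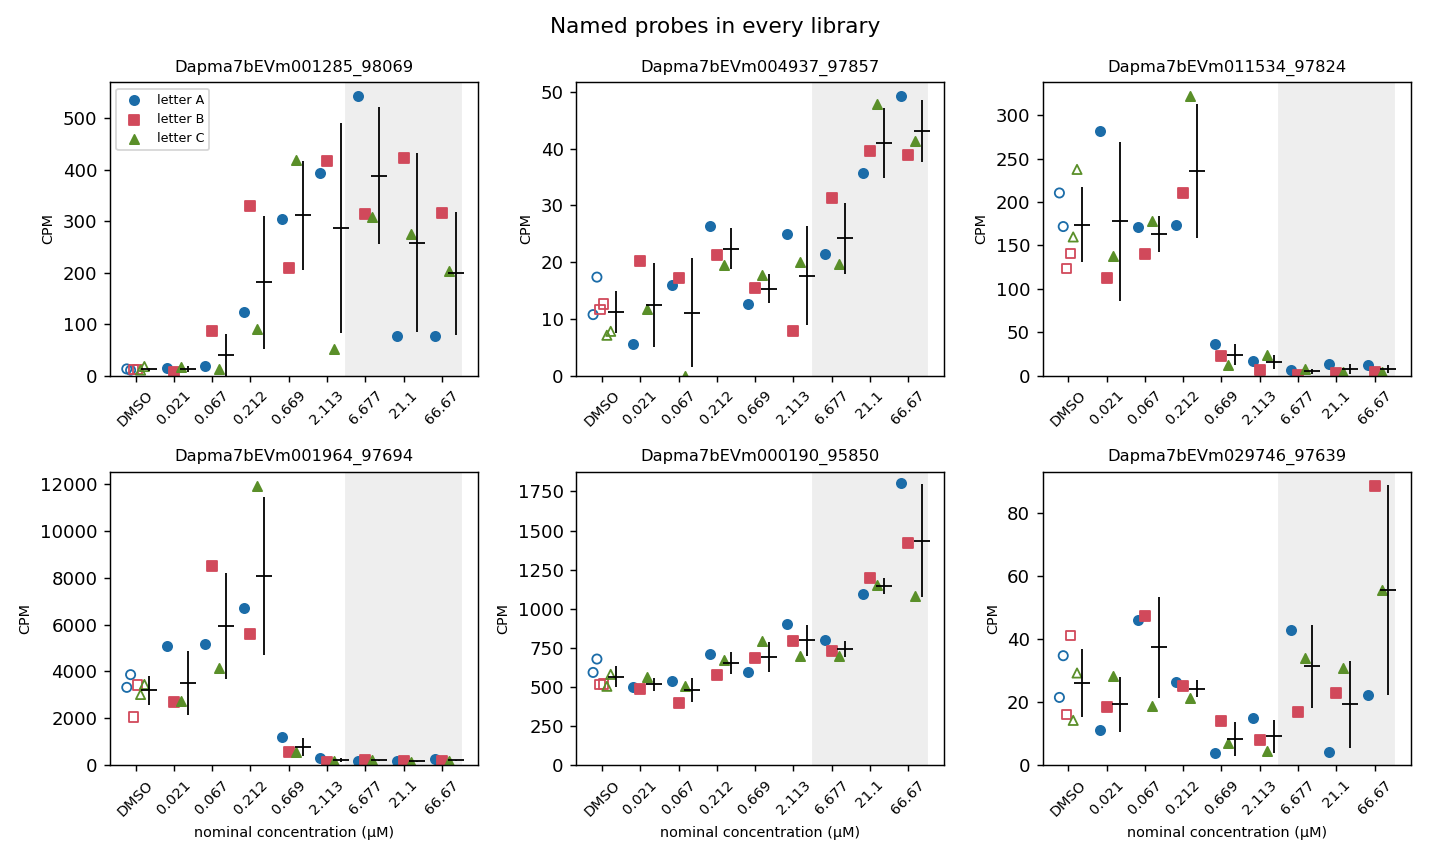
CPM of the 6 named probes in each of the 30 libraries against nominal concentration in µM, spaced evenly, each panel from 0 on its own scale. Symbols are pools by letter (open in DMSO), black dashes with bars are means ± SD, and grey marks the 3 highest concentrations; Dapma7bEVm000190_95850 is highest at 21.1 and 66.67 µM, while Dapma7bEVm001964_97694 lies flat from 2.113 µM upward.

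The 3 highest concentrations were then compared with the next lower ones. D1 to D3 against D4 and D5 had 11 calls (0.772%), 3 higher and 8 lower at the higher concentrations (3 and 3 with library totals alone), with 160 probes (11.2%) at an unadjusted p under 0.05. DESeq2 called 24, while 0 were called without the libraries of letter A or of letter C, 1 without those of letter B, and 0 with limma on the unscaled log2 values (66 at an unadjusted p under 0.05). The number that differ is thus poorly fixed. Of the 11, 8 were called against DMSO and lay further from it at D1 to D3, 1 was called and lay nearer to it, and 2 were not called against DMSO. The count depends on single libraries: it ran from 3 to 10 when 1 treated or DMSO pool was left out, and 9 of these 15 omissions (D1 A, D1 B, D2 B, D2 C, D3 A, D3 C, CON B, XtraC A and XtraC C) moved it by over 1.5 times. Of the 88 probes that had fallen, 62 lay lower at D1 to D3 than at D4 and D5, with a median difference of -0.13, and of the 76 that had risen 45 lay higher, with a median of 0.05. Over all tested probes 708 lay higher and 716 lower, with a median of 0.00. The pools of D1 to D3 chose the 76 and the 88 and also enter this comparison. That choice alone leans such counts away from DMSO, also that of the 8 called probes that lay further from it. These counts are a description and carry no test.

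The probes with the largest changes in this comparison were looked up after their values were seen. Dapma7bEVm011534_97824 had means of 15.5 CPM at D4 and 23.8 at D5 and was lower at D1 to D3 by a log2 difference of -1.61 (edgeR, adjusted p = 0.0450). Dapma7bEVm001964_97694 had 207 CPM at D4 and 772 at D5 (-1.03, adjusted p = 0.0296), so its difference lay at D5. Dapma7bEVm000190_95850 was higher by 0.53 (adjusted p = 0.0102). The other probe, Dapma7bEVm029746_97639, behaved otherwise. It held 22.2, 88.6 and 55.6 CPM in D1, 4.12, 22.9 and 30.8 CPM in D2, 42.9, 16.9 and 34.1 CPM in D3, 4.63 to 14.9 CPM in D4 and 3.78 to 14.1 CPM in D5. DMSO pools held 14.2 to 41.0 CPM (median 25.4), so it was low at D4 and D5 and overlapped with DMSO at the higher levels. It was 1.86 higher at D1 to D3 than at D4 and D5 (adjusted p = 0.0395) and did not pass the test against DMSO (0.26, adjusted p = 0.739). Over 26 other settings each, the adjusted p rose to 0.05 or above in 21 for Dapma7bEVm011534_97824, 10 for Dapma7bEVm029746_97639, 8 for Dapma7bEVm001964_97694 and 4 for Dapma7bEVm000190_95850.

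Against D6 to D8, the 3 highest concentrations had 249 probes called (17.5%), 114 higher and 135 lower, and D4 and D5 had 229 (16.1%), 117 higher and 112 lower. With library totals alone the splits were 227 and 79, and 163 and 86, and with the unscaled log2 values 557 and 22, and 414 and 22; the median log2 fold change of all probes for the first comparison was 0.01 with TMM, 0.10 with totals alone and 0.40 with the unscaled values. These comparisons share the pools of D6 to D8, so their likeness was not measured. Without shared libraries, D4 and D5 against D6 to D8 and D1 to D3 against DMSO had 98 called probes in common, 49 higher in both and 49 lower in both. They are 42.8% of the first list, beside 11.5% of all tested probes called in the second comparison. They are 59.8% of the second list, beside 16.1% of all tested probes called in the first. In opposite directions 0 probes were called. Both lists came from the same fit of 30 libraries, which shares each probe's estimate of the spread, and the letters A, B and C recur in both. A probe with a small spread is called more readily in each. The lists are thus not independent, and their overlap is a description. Of the 229 probes of the first list, 207 had the same sign in the second comparison. The share of same signs over all tested probes is not given.

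The ends of the range were also compared with controls that they did not share. D1 had 29 calls against CON (2.04%) and D3 had 30 against XtraC (2.11%); 16 probes were in both lists, 2 higher and 14 lower, which is 55.2% and 53.3% of them. With the control sets exchanged, D1 had 27 calls against XtraC (1.90%) and D3 had 27 against CON (1.90%), with 14 in common, 1 higher and 13 lower, or 51.9% of each. No probe was called in opposite directions in either pair. These comparisons came from the same fit, with shared estimates of the spread, so the lists in each pair are not independent. The sign at D3 was the sign at D1 for all 29 probes called for D1 in the first pair and all 27 in the second. Here too the share of same signs over all tested probes is not given.

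Some gene identifiers carry more than 1 probe, which gives a second reading from the same pools. The 164 called probes fall on 153 of the 1988 gene identifiers. Of 120 identifiers with at least 2 tested probes, 29 had a called probe; in 19 of them 1 probe was called, in 9 several were called in the same direction, and in 1 they were called in opposite directions. The last was Dapma7bEVm009450, with log2 fold changes of -0.34 (edgeR, adjusted p = 0.0439) and 0.33 (adjusted p = 0.0449), both close to the threshold. All 3 probes of Dapma7bEVm015023, chosen after the values were seen, fell, with log2 fold changes of -0.61, -0.78 and -0.40 (adjusted p = 2.78e-06, 0.000189 and 0.00315). Others, chosen in the same way, had a large fall at only 1 of their probes. Dapma7bEVm015061 had -1.95 (edgeR, adjusted p = 0.00159) and 0.19 (0.151), and Dapma7bEVm010330 had -2.57 (0.0122) and -0.18 (0.253). Where only 1 of an identifier's probes was called, the difference between its probes was not tested, and whether they read different transcripts is not given in the sources used here.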

How the data were processed

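TempO-Seq counts of whole Daphnia magna were used as the authors deposited them: 1 table of raw counts per probe, whole numbers without scaling. The authors' log2 table of this chemical held log2(count + 1), within 1e-08 of the counts, and served only as an alternative. bcl2fastq is the tool that the submitters' processing notes name, without a version; how reads were matched to probes is not given in the sources used here. Columns matched to no sample numbered 0. Tests used edgeR 4.0.16 (R 4.3.3) with TMM factors, filterByExpr and the quasi-likelihood F test, on cis-Nonachlordane D1 to D8 and the 6 DMSO pools. P-values were adjusted over all 1424 tested probes by the Benjamini-Hochberg method, with a threshold of 0.05. Standard errors and 95% intervals were taken from the F statistic. CPM were scaled by TMM factors, and components used log2 CPM with a prior count of 2. Alternatives used DESeq2 1.42.0, limma 3.58.1, other scalings, no filter, other controls, a replicate term and omitted pools. Plots were made in matplotlib 3.10.9.

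The 2 called probes with the largest fold change in each direction and no overlap between pools are named, or those there are; for D1 to D3 against D4 and D5 the probes were chosen after their values were seen and may overlap. Of the gene identifiers 0 were found in the RefSeq table. The levels, comparisons and rules were chosen with earlier results of these data known. Probe counts without molecular identifiers are not independent molecules.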

Additional observations from a re-analysis of the deposited data

Results flagged for a closer look

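In the probe that rose the most, Dapma7bEVm001285_98069, XtraC pool C held 17.5 CPM while the other 5 DMSO pools lay between 10.4 and 12.9 CPM. Its gap to the nearest pool took a share of 0.652 of the range of the 6 pools, above Dixon's 95% limit; it rests on 9 counts, and all 9 treated pools lay above it. It was 1 of 9 sets of 6 DMSO pools examined, and chance gives about 1 in 20.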

How the results depend on the processing

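The counts of called probes kept within 1.5 times of those reported with relative log expression factors. The other values follow. With library totals alone, D1 to D3 against D4 and D5 had 6 calls. DESeq2 gave 24 there. With no filter on low counts it gave 7, and D2 alone 69. With limma on the deposited log2 table, which is not scaled for depth, there were 420 calls for D1 to D3 together, 26 for D1, 28 for D3, 0 for D1 against D3, 0 for any difference among the levels, 0 against D4 and D5, 579 against D6 to D8 and 436 for D4 and D5 against D6 to D8; 348 of 420 intervals lay within 1. With only 15 libraries in the fit, 0 probes differed among the levels.

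The controls were also changed, in number as well as in kind. CON pools alone gave 75 calls together, 27 for D1, 43 for D2 and 26 for D3, with 53 intervals within 1. XtraC pools alone gave 73, 26, 42 and 27, with 59 intervals within 1. With the 24 fexofenadine libraries as controls the values were 418, 99, 218 and 134, with 349 intervals within 1. With CON for D1 and XtraC for D3 they were 29 and 30, and exchanged 27 and 27. A limit of 0.5 left 74 intervals. Adding the fexofenadine libraries to the fit, chosen after seeing the data, gave 178 together.

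With the replicate block, that is the letter as a term, 72 probes were called for D1 and 95 for D3, and 223 together, 194 of them with intervals within 1; D1 against D3 stayed at 1. The letters may name the 3 plates, but no label says so. Deviations from group means correlated with a mean of 0.117 over 132 pairs of the same letter (-0.55 to 0.68; 66 over 0.1) and -0.057 over 264 pairs of different letters (76 over 0.1), and 18 of 30 libraries correlated best with their own letter, a hint of pairing in the data. As no label says what the letters mark and not every same-letter pair correlated, the fit without the letter is the one reported. Uneven correlation does not show that pairing is absent. The fit with the letter called more probes against DMSO, at each level and together.

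Leaving out replicates, one library or one letter at a time, calls ran from 53 to 173 for the levels together, 21 to 45 for D1, 18 to 111 for D2, 20 to 62 for D3, 0 to 1 for any difference among them, 0 to 1 for D1 against D3, 0 to 10 against D4 and D5, 99 to 253 against D6 to D8 and 56 to 240 for D4 and D5 against D6 to D8, and intervals within 1 from 35 to 142. The test of any difference among the levels called 0 without D1 A, D3 B or D3 C. The cause of these moves was not tested, apart from the fewer samples that an omission leaves. Depth limits the scarce probes: 954 of 2378 were not tested.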
